A study of Mus musculus with 2 samples.

Results

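Expression of the cadherin superfamily was read in whole limb buds of Bhlha9 knockout and wild-type mouse embryos at E10.5, on 1 Affymetrix Mouse Genome 430 2.0 array per genotype. Both lines were C57BL/6. The number of embryos behind each RNA and the proportion of fore and hind limb buds were not stated by the labels. Bhlha9, the knocked-out gene, codes for a transcription factor of the basic helix-loop-helix family. Members were taken by a rule on gene names, set with earlier results of these data known. The rule took every probe set with a single symbol of the Cdh, Pcdh, Fat, Dchs, Dsg, Dsc or Celsr series, with the endothelial gene Cdh5 left out. This gave 121 probe sets of 68 genes, out of 34945 single-symbol probe sets of 18193 genes. They comprised 19 classical and other Cdh-named genes, 6 desmosomal cadherins, 33 protocadherins and 10 atypical genes of the Fat, Dachsous, Celsr, cadherin-23 and protocadherin-15 kind. With 1 array per genotype nothing could be tested, the spread between embryos is unknown, and "higher" and "lower" refer to this pair of arrays.

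Cadherins are calcium-dependent adhesion proteins with repeated extracellular domains. Classical cadherins join like cells to like at adherens junctions and are tied to actin through beta-catenin, alpha-catenin and p120-catenin, and desmosomal cadherins are tied to keratin filaments through plakoglobin, plakophilins and desmoplakin. Protocadherins adhere weakly and are best known for recognition between neurons, while the very large Fat, Dachsous and Celsr proteins orient cells within a tissue. In the early limb bud E-cadherin marks the ectoderm and its apical ridge, and the mesenchyme carries N-cadherin and cadherin-11.

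A signal counted as above background when it exceeded the 40th percentile of the array's non-control probe sets, which lay at 41.8 on the knockout array and 41.2 on the wild-type array. Signals under this floor were raised to it, so that a ratio against a floored array is a bound. Each gene was read by its probe set of highest mean signal, with other probe sets above the floor given beside it. The error of 1 log2 ratio, taken from how far the 2 brightest probe sets disagreed in 5440 genes, was 0.28. It was 0.43 where the dimmer probe set had a mean signal of at most 201, 0.29 up to 665 and 0.17 above that, and it leaves out differences between embryos and RNA preparations. The single probe set of Bhlha9 read 1.70 on the knockout array and 7.87 on the wild-type array, below background in each case, and gave no check of the genotype. The knockout array also carried transcripts of other tissues. Of 13 embryonic liver markers, 12 were above the floor on the knockout array and 2 on the wild-type array, with summed signals of 35010 (knockout) and 405 (wild-type). All 19 neural tube markers were above the floor on the knockout array and 8 on the wild-type array, with sums of 7266 (knockout) and 1250 (wild-type). The 21 limb mesenchyme markers summed to 27533 on the knockout array and 46813 on the wild-type array. Neural crest and glia markers summed to 2814 (knockout) and 1086 (wild-type), but of these 7 genes 4 had positive and 3 negative ratios or bounds. Fabp7, at 952 (knockout) and 56.2 (wild-type), is in that sum and also on the neural tube list, while Sox10 had a ratio of -0.72. Primitive red cell markers summed to 90795 (knockout) and 85317 (wild-type). In bulk tissue, fewer cells of a type and less RNA per cell cannot be told apart. What part these tissues had in the cadherin values was not tested.

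Of the 68 member genes, 31 exceeded the floor on both arrays, 5 on the knockout array alone and 32 on neither, which leaves 36 with a ratio or a bound. Of the 36, 3 differed by 2-fold or more toward the knockout array, namely Cdh1, Cdh10 and Pcdh8, and 0 toward the wild-type array. Among all 13088 genes with a ratio or a bound, 4.15% lay that far toward the knockout array and 2.65% toward the wild-type array. The 3 members were read on both arrays, and of all genes so read 2.87% were past 2-fold higher and 2.51% lower. At a threshold of 1.5-fold, 8 members were higher and 7 lower, which is 22.2% and 19.4% of the 36, where 11.2% and 11.7% of all genes were. Among the 31 read on both arrays, 6 were higher and 7 lower at that threshold, against 9.25% and 11.8% of all such genes. The median log2 ratio of the 31 was 0.07, with 17 positive and 14 negative ratios, and that of all genes read on both arrays was -0.01. Members lay on both sides of zero, with Cdh1 farthest out on the knockout side and Pcdh19 on the wild-type side. Every member past 1.5-fold kept its sign under each scaling, floor and probe set choice that gave it a value.

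**Figure D1:**
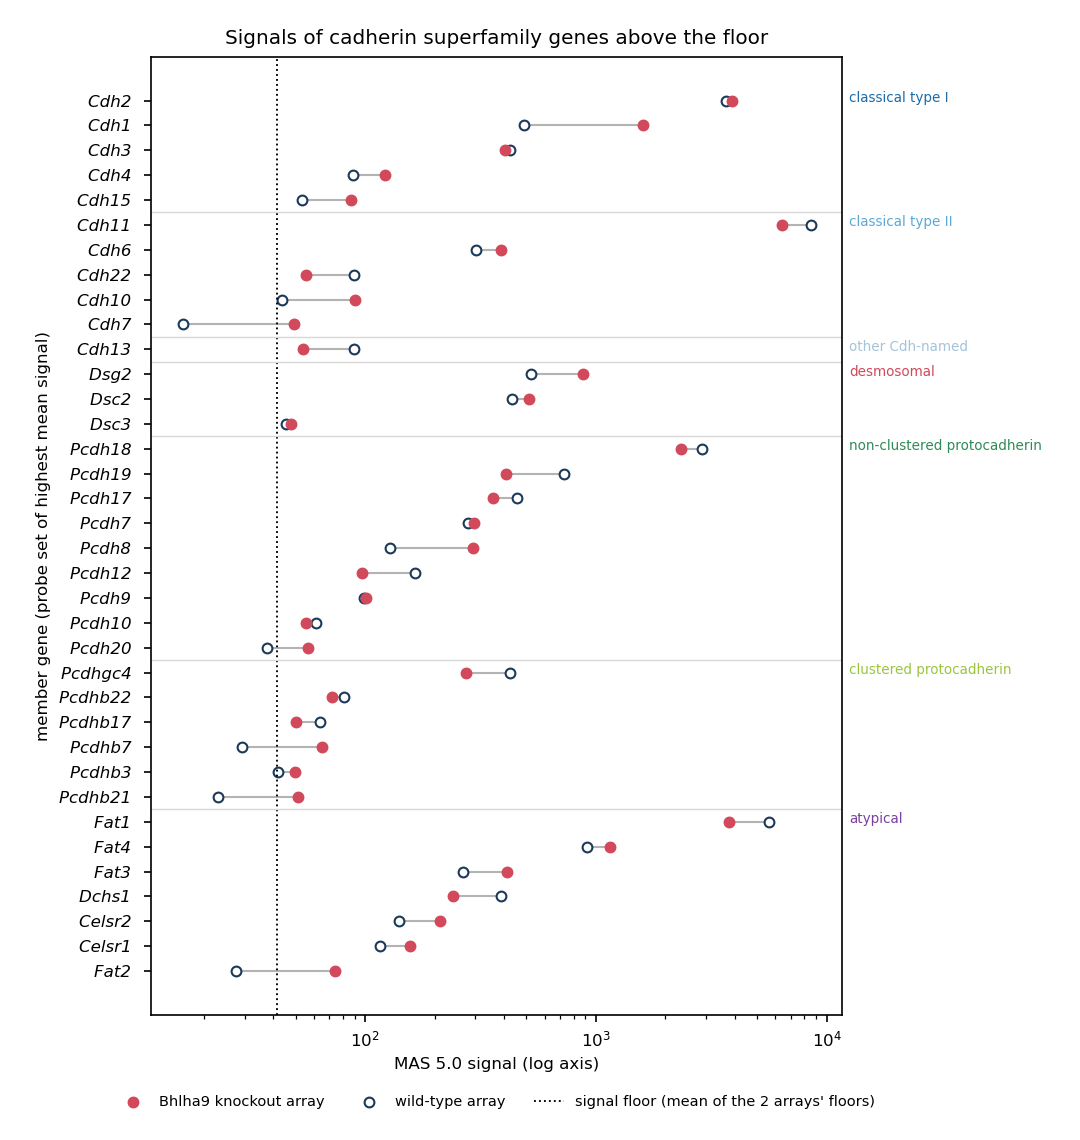
MAS 5.0 signals (log axis) of the 36 cadherin superfamily genes with a ratio or a bound, by class, with the knockout array as filled points, the wild-type array as open points and the signal floor as a dotted line. The widest gap between arrays among genes above the floor on both is that of Cdh1, at 1602 on the knockout array and 488 on the wild-type array.

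**Figure D2:**
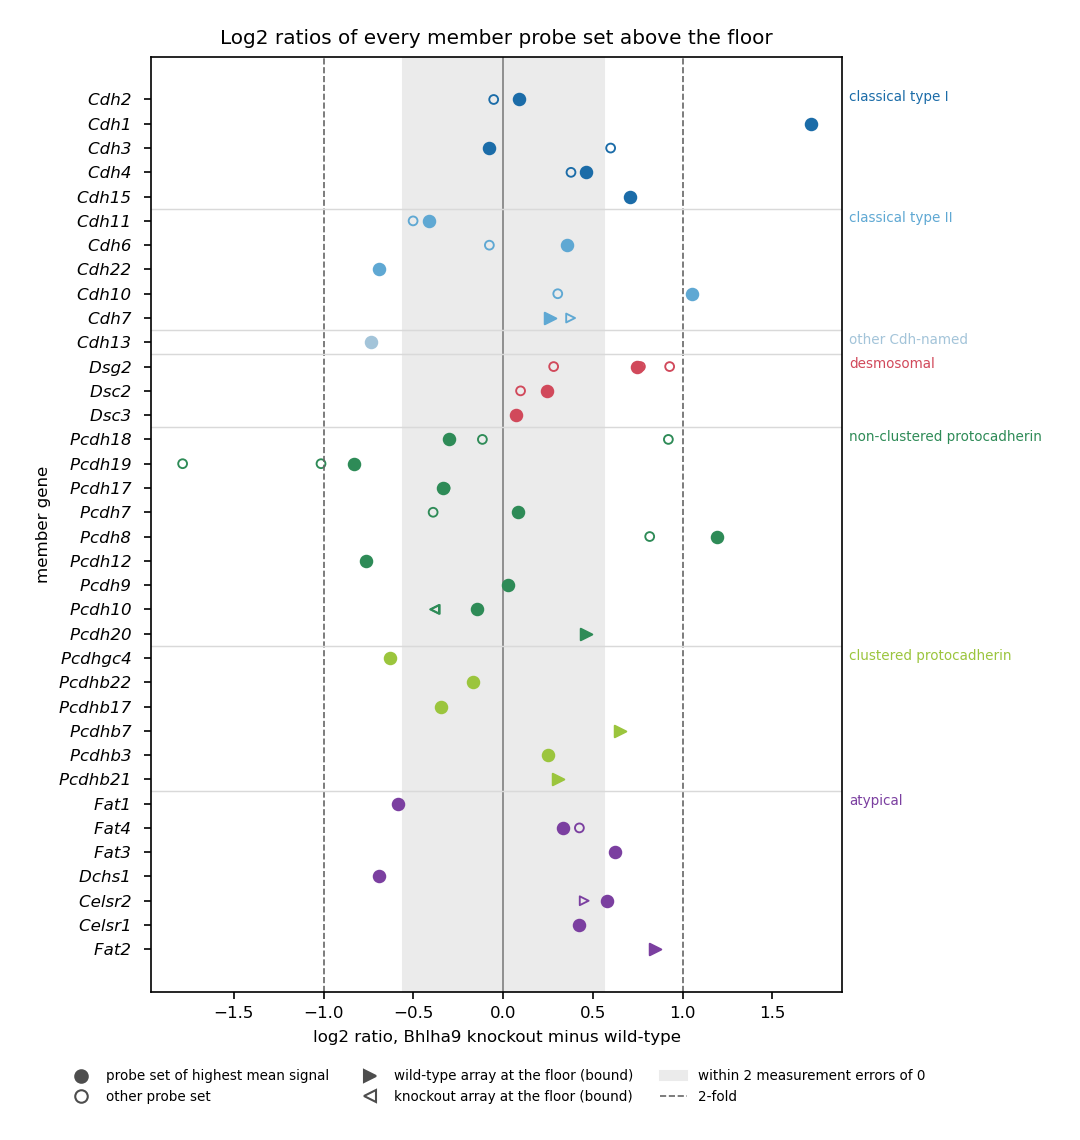
Log2 ratios, knockout minus wild-type, of every member probe set above the floor, with filled symbols for the probe set of highest mean signal, open symbols for the others and triangles for bounds. The grey band spans 2 measurement errors of 0.28 on each side of zero, and the 3 probe sets of Pcdh19 all lie to its left, from -1.79 to -0.83.

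Among the classical cadherins, the type I genes were led by Cdh1, which encodes E-cadherin of epithelia. Cdh1 read 1602 on the knockout array and 488 on the wild-type array, a log2 ratio of 1.72 or 3.28-fold, from its only probe set. Read by the brightest probe set and the 40th percentile floor, it was the only member past 3-fold, and its ratio stayed between 1.65 and 1.79 under the other scalings, floors and probe set choices. Cdh3, which encodes P-cadherin and is the gene next to Cdh1 on chromosome 8 of the GRCm38.p6 assembly, read 402 on the knockout array and 424 on the wild-type array. Its ratio of -0.08 was within the measurement error, while its dimmer probe set, at 62.7 (knockout) and 41.4 (wild-type), gave 0.60. The ratio of Cdh1 exceeded that of Cdh3 by 1.79, where the difference between 2 probe sets of one gene had a robust SD of 0.396, a gap that does not depend on linear scaling of the arrays.

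Cdh2, encoding N-cadherin of mesenchyme, nerve and muscle, differed by less than the error. It read 3888 on the knockout array and 3658 on the wild-type array by its brighter probe set, and 1464 (knockout) and 1519 (wild-type) by the other, for ratios of 0.09 and -0.05. The ratio of Cdh1 exceeded that of Cdh2 by 1.63. Cdh4, encoding R-cadherin, read 121 on the knockout array and 88.2 on the wild-type array, a ratio of 0.46, with 0.38 by its other probe set above the floor. Cdh15, the M-cadherin of muscle precursors, read 87.0 (knockout) and 53.2 (wild-type), a ratio of 0.71 at a low signal, where 1 ratio has an error of 0.43. Of the 5 type I genes, 4 had positive ratios, and Cdh1 stood farthest from zero.

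Epithelial and muscle markers, beside Cdh1 and Cdh15, were mostly higher on the knockout array, while Cdh2 and Cdh3 lay near zero. Of 19 surface ectoderm and epithelium markers above the floor, 9 exceeded 2-fold on the knockout side and 0 on the wild-type side, 18 ratios were positive, the median was 0.96, and the 21 matched markers summed to 11281 on the knockout array and 6771 on the wild-type array. Epcam, an adhesion protein of epithelia, read 1716 (knockout) and 667 (wild-type), and the ectodermal regulator Trp63 read 743 (knockout) and 270 (wild-type). Krt8, a keratin of simple epithelia, ran the other way at -0.11. The markers of this list under the floor on both arrays were Ovol1 and Rab25. Gut endoderm and liver epithelium also make E-cadherin, and of 9 gut endoderm markers 7 were above the floor on the knockout array and 2 on the wild-type array, with sums of 1765 (knockout) and 774 (wild-type). Foxa1 and Foxa2, regulators of endoderm, read 314 and 199 on the knockout array and 21.2 and 26.6 on the wild-type array, both under its floor. The part of ectoderm, gut or liver in the Cdh1 value was not tested. Muscle markers, beside Cdh15, exceeded 2-fold on the knockout side for 7 of 10 genes and on the wild-type side for 0, with sums of 4499 on the knockout array and 2141 on the wild-type array over 12 genes. Actc1 ran the other way, at 1067 (knockout) and 1481 (wild-type), a ratio of -0.47, and made up most of the wild-type sum.

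The type II cadherins, close relatives that adhere through a different surface of the first domain, gave 5 of 10 genes above the floor. Cdh11, the cadherin of mesenchyme and later of bone-forming cells, read 6421 on the knockout array and 8550 on the wild-type array, a ratio of -0.41, and its other probe set read 930 (knockout) and 1317 (wild-type), a ratio of -0.50. Both were on the wild-type side by more than the error of 0.17 at such signals. Cdh6, first described in kidney, read 386 (knockout) and 302 (wild-type), a ratio of 0.35, with -0.08 by its dimmer probe set. Cdh22, a cadherin of the nervous system, read 55.2 on the knockout array and 89.1 on the wild-type array, a ratio of -0.69. At such low signals 1 ratio has an error of 0.43. Cdh7, known from migrating neural crest of the chick, was above the floor on the knockout array alone, at 49.3 (knockout) against 16.2 (wild-type), and was at least 1.20-fold higher. Its other probe set above the knockout floor read 53.5 (knockout) and 2.20 (wild-type), at least 1.30-fold higher. The remaining Cdh8, Cdh9, Cdh18, Cdh19 and Cdh20 were under the floor on both arrays, with no signal above 28.0.

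Cdh10, a cadherin of the nervous system, was the type II gene past 2-fold. It read 90.4 on the knockout array and 43.6 on the wild-type array, just over the floor there, a ratio of 1.05 or 2.07-fold. A dimmer probe set read 71.1 (knockout) and 57.6 (wild-type), a ratio of 0.30, so the size depended on the probe set. With a pseudocount of 32 in place of the floor the ratio was 0.70, and as the median of both probe sets it was 0.68, each under 2-fold. A floor set at the 60th percentile left the gene unread. Neural tube markers, beside Cdh10, were past 2-fold toward the knockout array in 15 of 19 genes and toward the wild-type array in 0, and their median of 2.21 takes 11 genes at their lower bound. Some other members known from the nervous system are named here as examples. Cdh22 at -0.69 and Pcdh17 at -0.33 lay on the wild-type side. Pcdh10 at -0.15 was within the error of 0.43 that 1 ratio has at low signals. Fat3 at 0.63 and Fat2, at least 1.80-fold higher, lay on the knockout side. Further members, such as Cdh4 at 0.46, Celsr2 at 0.58 and Pcdhgc4 at -0.63, were not sorted by neural expression. The part of neural tissue in the Cdh10 value was not tested.

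Among the other Cdh-named genes, Cdh13, encoding the membrane-anchored T-cadherin that lacks a cytoplasmic tail, read 53.6 on the knockout array and 89.4 on the wild-type array, a ratio of -0.74. This is a low signal, where 1 ratio has an error of 0.43. Cdh16, Cdh17 and Cdh26, known from kidney, gut and airway epithelium, were under the floor on both arrays. Over the classical and other Cdh-named genes together, 11 of 19 were above the floor, 10 on both arrays, and the median ratio was 0.26 over the 11 and 0.22 over the 10.

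The mesenchymal side of the comparison gave lower values on the knockout array. Of the 21 limb mesenchyme markers, 20 had negative ratios, 8 were past 2-fold toward the wild-type array and 0 toward the knockout array, and the median was -0.86. Prrx1, expressed throughout the early limb mesenchyme, read 6189 on the knockout array and 7757 on the wild-type array, a ratio of -0.33. The ratio of Cdh11 lay between that of Prrx1 and the median of the list. The part of these markers' tissue in the Cdh11 value was not tested.

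Of the 6 desmosomal cadherins, 3 were above the floor and all under 2-fold, and 2 of these, Dsc2 and Dsc3, lay within the error of 0.28. Dsg2, encoding the desmoglein of simple epithelia and heart, read 879 on the knockout array and 523 on the wild-type array, a ratio of 0.75 or 1.68-fold. Its other 3 probe sets above the floor gave 0.76, 0.93 and 0.28, all of the same sign, and the lowest came from the dimmest, at 60.4 (knockout) and 49.7 (wild-type). Dsc2, encoding the desmocollin with the widest tissue range, read 510 on the knockout array and 431 on the wild-type array, a ratio of 0.24, with 0.10 by its other probe set. Dsc3, a desmocollin of stratified epithelia, read 47.6 (knockout) and 45.4 (wild-type), just over the floor on both arrays, a ratio of 0.07. Dsc1, Dsg1a and Dsg1b, which belong to the later, keratinising epidermis, did not reach the floor, with no signal above 19.7. The ratio of Dsg2 exceeded that of Dsc2 by 0.50, which is little more than the robust SD of 0.396 between probe sets of one gene.

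The genes of the desmosomal plaque mostly had positive ratios. Dsp, encoding desmoplakin, read 1953 on the knockout array and 1044 on the wild-type array, a ratio of 0.90. Jup, encoding plakoglobin, which both kinds of junction share, read 132 (knockout) and 66.9 (wild-type), a ratio of 0.98. Evpl, encoding envoplakin, read 77.2 (knockout) and 46.2 (wild-type), a ratio of 0.74. Ppl, encoding periplakin, had a ratio of 0.12. These genes of the plaque were all under 2-fold, with Dsp and Jup farthest from zero. The plakophilins were less uniform, since Pkp1 was above the floor on the knockout array alone and at least 1.53-fold higher, Pkp2 had a ratio of 0.29, and Pkp3 was above the floor on the wild-type array alone and at least 1.34-fold lower on the knockout array. Pkp4, which is found at several junctions, was at 0.01, with 1888 on the knockout array and 1878 on the wild-type array.

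The non-clustered protocadherins, which sit outside the tandem arrays of chromosome 18, had 9 of 10 genes above the floor, 8 on both arrays. Pcdh8, the paraxial protocadherin known from somite formation, passed 2-fold. It read 293 on the knockout array and 128 on the wild-type array, a ratio of 1.19 or 2.28-fold, and its other probe set read 242 (knockout) and 138 (wild-type), a ratio of 0.82. Both probe sets were higher on the knockout array, and the second, of a kind prone to cross-hybridisation, stayed under 2-fold. With a floor set at the 60th percentile, the wild-type signal was raised to the floor, and the value of 0.80 was a lower bound. Somite, flank and mesothelium markers, beside Pcdh8, were past 2-fold toward the knockout array in 4 of 11 genes and the other way in 0. Their median was 0.68, with sums of 5609 on the knockout array and 4542 on the wild-type array over 12 genes. The genes past 2-fold were Foxc2, Uncx and the mesothelial markers Wt1 and Upk3b. The somite factors Uncx and Tcf15 had ratios of 1.14 and -0.02. The part of these tissues in the Pcdh8 value was not tested.

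Pcdh19, whose human counterpart on the X chromosome is mutated in an epilepsy that mainly affects females, gave the most negative readings of the family. Its 3 probe sets read 408, 344 and 61.4 on the knockout array and 725, 696 and 212 on the wild-type array. The knockout values were lower in all 3, with ratios of -0.83, -1.01 and -1.79, of which the last 2 passed 2-fold. By the rule of the brightest probe set the gene was 1.78-fold lower, and by the median of its probe sets it was past 2-fold at -1.01. Over all probe sets above the floor, 3.89% were at least 2-fold lower and 3.38% at least 2-fold higher. Of the 58 member probe sets above the floor, 2 were at least 2-fold lower, both of Pcdh19, and 3 were at least 2-fold higher.

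Pcdh18, expressed in embryonic mesenchyme, read 2339 on the knockout array and 2882 on the wild-type array, a ratio of -0.30, with -0.12 by its second probe set. Its dimmest probe set went the other way, at 105 (knockout) and 55.6 (wild-type), a ratio of 0.92, so the direction depended on the probe set. Pcdh17, an adhesion protein of axons, was lower by both probe sets, at 359 and 320 on the knockout array and 453 and 401 on the wild-type array, with ratios of -0.33 and -0.32. Pcdh12, a protocadherin of endothelium and placenta, read 96.9 (knockout) and 165 (wild-type), a ratio of -0.77 with an error of 0.43. Endothelial markers were lower as well, with 10 of 11 negative ratios, 2 of them past 2-fold, and a median of -0.43. Cdh5, which is on that list, read 650 on the knockout array and 1047 on the wild-type array. The part of endothelium in the Pcdh12 value was not tested.

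The other non-clustered protocadherins lay near zero or near the floor. Pcdh7 read 296 on the knockout array and 280 on the wild-type array, a ratio of 0.08, but -0.39 by its other probe set. Pcdh9 had a ratio of 0.03, at 101 (knockout) and 99.1 (wild-type). Pcdh10, expressed mainly in brain, read 55.3 (knockout) and 61.3 (wild-type), a ratio of -0.15, and its 2 further probe sets above the wild-type floor were under the knockout floor. Pcdh20 was above the floor on the knockout array alone and at least 1.38-fold higher. Pcdh1 did not reach the floor, with 27.9 on the knockout array and 20.8 on the wild-type array.

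The promoters of the members with a probe set past 2-fold are shown because basic helix-loop-helix factors as a class bind the E-box CANNTG. Of these 4 genes, the RefSeq promoter table of the GRCm38.p6 assembly held Cdh10, Pcdh8 and Pcdh19. Each window runs from 250 bases before to 50 bases after an annotated start, 5′ to 3′ on the gene's strand, and capitals mark every CANNTG, which reads the same on both strands. The Pcdh8 window is chr14:79771263-79771562 on the minus strand, that of Pcdh19 is chrX:133688944-133689243 on the minus strand, and that of Cdh10 is chr15:18820079-18820378 on the plus strand, at a start 1460 bases downstream of the outermost annotated one.
Pcdh8: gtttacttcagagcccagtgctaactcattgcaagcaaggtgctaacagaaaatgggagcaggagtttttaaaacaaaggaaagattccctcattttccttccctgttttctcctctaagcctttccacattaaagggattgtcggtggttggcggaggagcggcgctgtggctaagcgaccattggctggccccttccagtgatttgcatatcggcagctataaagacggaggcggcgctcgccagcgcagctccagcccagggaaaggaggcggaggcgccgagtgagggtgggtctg
Pcdh19: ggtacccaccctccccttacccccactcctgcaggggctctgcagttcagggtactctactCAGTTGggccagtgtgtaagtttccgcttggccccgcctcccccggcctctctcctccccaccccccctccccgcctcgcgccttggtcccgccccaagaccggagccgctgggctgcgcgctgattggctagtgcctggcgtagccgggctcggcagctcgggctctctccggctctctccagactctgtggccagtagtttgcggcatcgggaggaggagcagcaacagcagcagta
Cdh10: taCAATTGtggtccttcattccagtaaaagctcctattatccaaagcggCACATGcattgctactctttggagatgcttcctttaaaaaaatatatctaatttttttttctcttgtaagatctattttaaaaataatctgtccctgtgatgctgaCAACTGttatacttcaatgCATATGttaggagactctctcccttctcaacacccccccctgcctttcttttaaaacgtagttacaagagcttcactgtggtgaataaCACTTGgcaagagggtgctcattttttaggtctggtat
The Pcdh8 window held 0 E-boxes, that of Pcdh19 held 1 (CAGTTG) and that of Cdh10 held 5. Of all 32851 windows of this length in the table, 72.3% held at least 1 and 2.10% at least 5. None of the 3 held CAGGTG or its reverse complement CACCTG, the form bound by Snail and Zeb repressors, which 20.2% of all windows held on either strand. GC content was 54.3% for Pcdh8, 67.7% for Pcdh19 and 37.7% for Cdh10, beside a median of 52.7% over all windows. The 2 higher genes had the lowest and the highest E-box counts of the 3.

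The clustered protocadherins, neighbouring genes that neurons express in random combinations, were mostly under the floor. Of 23 genes, 6 were above it on at least 1 array and 4 on both, so 26.1% were read, where 71.9% of all genes and 52.9% of all members were. Pcdhgc4, a C-type member of the gamma cluster, read 272 on the knockout array and 422 on the wild-type array, a ratio of -0.63. Pcdhb22 read 71.9 (knockout) and 80.9 (wild-type), Pcdhb17 50.4 (knockout) and 64.0 (wild-type), and Pcdhb3 49.7 (knockout) and 41.8 (wild-type), for ratios of -0.17, -0.35 and 0.25. Pcdhb7 and Pcdhb21 were above the floor on the knockout array alone and at least 1.57-fold and 1.24-fold higher. The other 17 beta genes read no more than 37.7 on either array, and near-identical sequences among these genes leave single probe sets open to cross-hybridisation. Over all protocadherins, 12 of 33 were read on both arrays, 4 with positive and 8 with negative ratios, and their median was -0.24. With the bounds included, 15 had a value, 7 positive and 8 negative, with a median of -0.15.

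Atypical cadherins split between both directions, with 7 of 10 above the floor and 6 on both arrays. Fat1, a very large cadherin that acts on actin at cell edges, read 3759 on the knockout array and 5648 on the wild-type array, a ratio of -0.59. Fat4 and Dchs1, which bind each other across cell borders as receptor and ligand, did not run together. Fat4 read 1147 (knockout) and 912 (wild-type) by its brighter probe set and 1028 (knockout) and 766 (wild-type) by the other, for ratios of 0.33 and 0.42, while Dchs1 read 240 on the knockout array and 387 on the wild-type array, a ratio of -0.69. The gap of 1.02 between Fat4 and Dchs1 compares with a robust SD of 0.396 between probe sets of one gene, and Dchs1 had a single probe set. Fat4 was on the knockout side by both of its probe sets, and Dchs1 and Fat1 were on the wild-type side.

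Fat3, a cadherin of neurons, read 410 on the knockout array and 266 on the wild-type array, a ratio of 0.63. Fat2, known from cerebellar granule cells and epidermis, was above the floor on the knockout array alone, at 74.1 (knockout) against 27.6 (wild-type), and was at least 1.80-fold higher. Celsr1 and Celsr2, the Flamingo cadherins of planar cell polarity, read 156 and 210 on the knockout array and 116 and 141 on the wild-type array, for ratios of 0.43 and 0.58. The other Celsr2 probe set was under the wild-type floor and at least 1.37-fold higher. Celsr3, a neuronal member, and the hair-cell cadherins Cdh23 and Pcdh15 were under the floor on both arrays. The neural tube and ectoderm markers given above were higher on the same array, and their part in the Fat2, Fat3 and Celsr values was not tested.

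**Figure D3:**
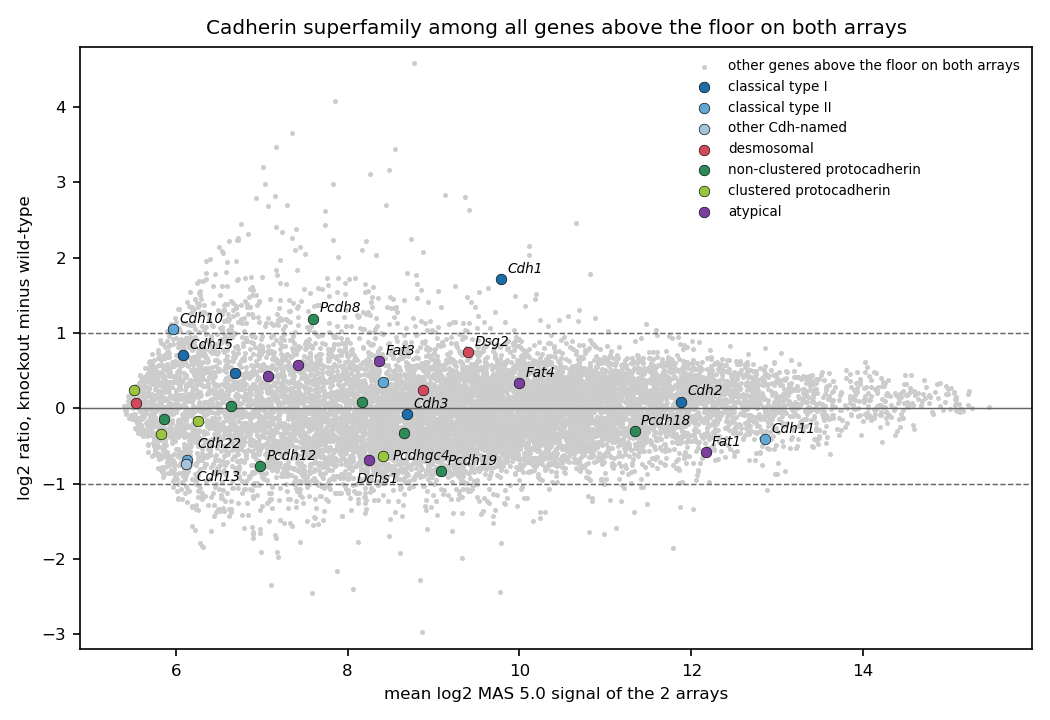
Log2 ratio, knockout minus wild-type, against the mean log2 signal of both arrays for the 31 members (coloured by class) and all other genes (grey) above the floor on both arrays, with dashed lines at 2-fold. Cdh1 and Pcdh8 lie above the upper line and Cdh10 just over it at a low signal, while Cdh2, Cdh11, Fat1 and Pcdh18 lie within 2-fold at high signals.

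The catenins that link classical cadherins to actin differed by less than 2-fold in their widely expressed forms, and the neural forms by more. Of 19 catenin and junction partner genes above the floor, 2 were past 2-fold toward the knockout array and 0 toward the wild-type array. Their median was 0.19, beside 0.01 over all genes above the floor. Ctnnb1, encoding beta-catenin, read 26215 on the knockout array and 21836 on the wild-type array, a ratio of 0.26. Ctnna1 and Ctnnd1, encoding alpha-E-catenin and p120-catenin, had ratios of 0.19 and -0.25, and the actin linker Vcl, encoding vinculin, read 2270 (knockout) and 3709 (wild-type), a ratio of -0.71. The 2 higher genes were Ctnnd2, encoding the neural delta-catenin, at 189 (knockout) and 43.0 (wild-type) with a ratio of 2.14, and Ctnna2, encoding alpha-N-catenin, which was above the floor on the knockout array alone and at least 2.80-fold higher.

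Transcriptional repressors of E-cadherin lay on the wild-type side for 6 of 9 genes, where 6454 of all 13088 genes did. Their median was -0.28, with 0 past 2-fold in either direction, and 5 of the 8 read on both arrays were within 2 errors of zero. Snai1, a repressor in epithelial-mesenchymal transition, read 82.2 on the knockout array and 127 on the wild-type array, a ratio of -0.63. Snai2, the limb mesenchyme relative, read 3373 (knockout) and 2914 (wild-type), a ratio of 0.21, and Zeb1, Zeb2 and Twist1 had ratios of -0.18, 0.13 and -0.33. Twist2, Tcf3 and Tcf4 had ratios of -0.63, -0.64 and -0.28, and Snai3 was above the floor on the knockout array alone and at least 1.58-fold higher. Of 22 Fat-Dachsous and Hippo pathway genes above the floor, 1 was past 2-fold toward the knockout array and 0 the other way, and the median was -0.04. It was Wwc1, encoding the scaffold Kibra, at 326 (knockout) and 149 (wild-type) with a ratio of 1.13, while Fjx1, the kinase that modifies Fat and Dachsous domains, was at 0.23 and the effectors Yap1 and Wwtr1 at -0.23 and 0.57. Among 6 proteases that cut cadherins or act at junctions, Mmp2, a gelatinase of mesenchyme, was the 1 gene past 2-fold, at 1280 on the knockout array and 3870 on the wild-type array, a ratio of -1.60. Adam10, the main sheddase of E- and N-cadherin, was at 0.06, and the median of the 6 was -0.22.

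**Figure D4:**
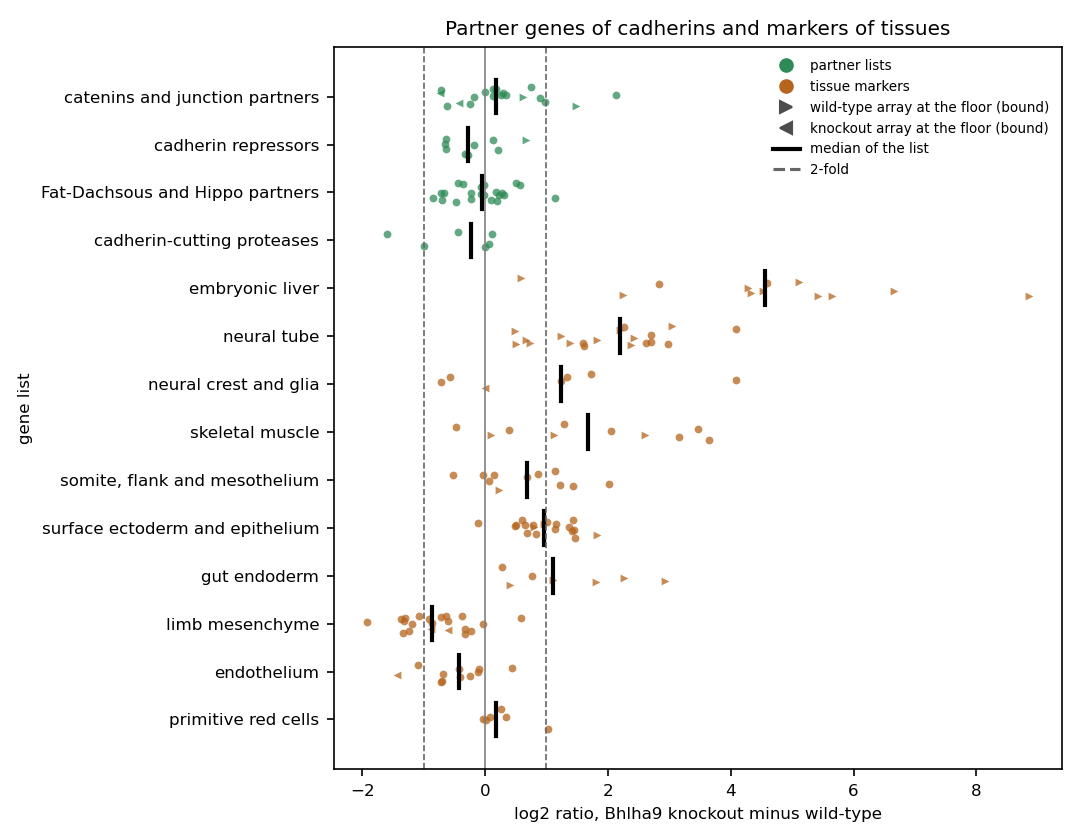
Log2 ratios, knockout minus wild-type, of genes above the floor in 4 lists of cadherin partners (green) and 10 lists of tissue markers (brown), with black bars at each list's median, triangles for bounds and dashed lines at 2-fold. The partner medians lie between -0.28 and 0.19, while those of liver and neural tube markers lie at 4.56 and 2.21 and that of limb mesenchyme at -0.86.

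How far 1 ratio can be read was checked within the family. Of 17 members with 2 or more probe sets above the floor, bounds included, 12 had the same sign in all of them. Those read on both arrays by each such probe set were Cdh4, Cdh10, Cdh11, Dsc2, Dsg2, Fat4, Pcdh8, Pcdh17 and Pcdh19. Cdh7, Celsr2 and Pcdh10 also count among the 12, but their probe sets include bounds, where the floored array sets the sign. The signs differed for Cdh2, Cdh3, Cdh6, Pcdh7 and Pcdh18, and the widest range within a gene was 1.22, for Pcdh18. Over all 5440 genes with such a pair, the signs matched for 69.4%. Every other member with a ratio or a bound had 1 probe set above the floor, so its value has no second reading. Those past 1.5-fold were Cdh1, Cdh13, Cdh15, Cdh22, Dchs1, Fat1, Fat2, Fat3, Pcdh12, Pcdhb7 and Pcdhgc4.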

How the data were processed

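Total RNA (200 ng) of whole limb buds was biotinylated and hybridised to 1 Affymetrix array per genotype, per the labels' protocols. The deposited values are intensities on a linear scale, 1 per probe set, which the authors summarised with MAS 5.0, per the series' design text. Of 45101 probe sets, 64 controls were set aside. Symbols came from the platform annotation, and all 68 member genes matched RefSeq genes of GRCm38.p6 by Entrez identifier. Probe sets with several symbols (932) or none here (9160) named no gene. Log2 ratios are knockout minus wild-type. Floor, probe set choice and threshold are given with the results. Every member is accounted for, with both signals for those past 2-fold and the brightest of each class. Partners were named if past 2-fold, together with Ctnnb1, Ctnna1, Ctnnd1 and Jup, and the other partner and marker genes named were chosen after their values were seen. Promoter windows were found for 26 members outside chromosome 18. Alternatives covered scaling, floor, probe set choice and threshold. Members and gene lists were chosen with earlier results of these data known. The steps were tested on simulated data. The number of arrays limits the precision. Python 3.11.15 with numpy 2.4.6 and pandas 2.3.3 was used, and limma 3.58.1 in R 4.3.3 for normalization.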

Additional observations from a re-analysis of the deposited data

How the results depend on the processing

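No paired analysis was possible because each genotype had 1 array. Counts of members at least 2-fold higher and lower were 3 and 0 in the report, 13 and 4 with the floor at the 20th percentile, which reads 57 members, and 1 and 0 at the 60th, which reads 19. They were 2 and 1 with the median over a gene's probe sets, where the lower gene was Pcdh19, 2 and 0 with a pseudocount of 32, 8 and 7 at a threshold of 1.5-fold, and 1 and 0 at 3-fold. Median centring, quantile and cyclic loess normalization, and probe sets with no letter suffix, left 3 and 0. Over all genes, 543 were higher and 347 lower as reported, 1860 and 1365 with the lower floor, 160 and 157 with the higher floor, 1472 and 1534 at 1.5-fold, and 175 and 45 at 3-fold. Higher genes made up 61.0% of all calls as deposited and 71.1% after loess, and the median of all genes, 0.01 as deposited, was at most 0.05 under the scalings. The atypical median was 0.43 in the report and 0.11 under the 60th percentile floor. There Fat2 was not read, and the wild-type signals of Celsr1 and Celsr2 were raised to the floor, which gave them values of -0.11 and 0.32. The other class medians moved by less than the error of 0.28, though that of the protocadherins changed sign, from -0.15 to 0.03 under the 20th percentile floor. Of 270 single-gene values under the alternatives, 11 moved by more than that error, 5 changed sign and 0 of these were past 1.5-fold in the report. Low signal limits what can be read of the 32 members under the floor.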

Other observations

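The alpha protocadherin cluster was read by 6 probe sets that carry 9 or 14 symbols each and named no member. Of these, 4 were under the floor on both arrays. The brightest read 52.5 on the knockout array and 79.2 on the wild-type array, a log2 ratio of -0.59, and another read 5.97 on the knockout array, under its floor, and 51.2 on the wild-type array, a log2 ratio of -0.29 as a bound.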
